A study of Mus musculus with 6 samples.

Results

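The heat shock genes described here are the transcription factor gene Hsf1 and 9 chaperone genes commonly placed among its targets: Hspa1a, Hspa1b, Hspa8, Hsph1, Hsp90aa1, Hsp90ab1, Dnajb1, Hspb1 and Hspe1. They were chosen by gene symbol, and all 10 were found among the 13595 genes of the deposited table. All 10 also passed the filter on low values, which left 12568 genes. Of the proteins, 8 are cytosolic chaperones, Hsf1 encodes a transcription factor, and Hspe1 encodes a mitochondrial chaperonin, so the set is wider than the cytosol.

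RNA was measured by poly(A) sequencing in cells selected for CD31, a surface marker of endothelial cells. The cells were primary cultures from the liver of C57BL6/J mice aged 4 weeks. There were 3 libraries labelled male and 3 labelled female, each group with replicate numbers 4, 5 and 6. All cultures were given 100 µM of indoxyl sulfate, a tryptophan metabolite that activates the aryl hydrocarbon receptor (AHR). They were also kept in hypoxia without full nutrients for 6 hours. Every library thus received the ligand and the stress, and the only contrast is that of the sex label under treatment. Cells without treatment were not analysed here. The labels do not say whether replicates were separate mice, isolations or wells, so p-values measure only the spread between these libraries, which may be technical.

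Heat shock factor 1 is held inactive in unstressed cells by chaperones. When damaged proteins occupy those chaperones, the factor is freed, forms trimers and binds heat shock elements, which are arrays of the unit GAA and its inverse TTC, in front of chaperone genes. HSP70 proteins work with J-domain proteins, which deliver substrates, and with HSP110 proteins, which exchange the nucleotide. HSP90 matures signalling proteins, among them the AHR itself, which waits in the cytosol bound to HSP90 and its co-chaperone p23.

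Promoter sequences are given first because the chaperone members are known for this shared element. The RefSeq promoter table (GRCm38.p6) held 6 of the 10 genes, and in them the 250 bases before the annotated start were searched for the paired units GAANNTTC and TTCNNGAA and for 3 units in a row (GAANNTTCNNGAA or, on the other strand, TTCNNGAANNTTC). Each paired unit reads the same on both strands, and every run of 3 units contains one of each pair. Capitals mark the matches in the last 130 bases before the start.
Hspa1a: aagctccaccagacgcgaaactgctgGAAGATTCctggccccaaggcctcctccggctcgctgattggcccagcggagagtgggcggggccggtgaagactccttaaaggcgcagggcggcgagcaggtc
Hspa1b: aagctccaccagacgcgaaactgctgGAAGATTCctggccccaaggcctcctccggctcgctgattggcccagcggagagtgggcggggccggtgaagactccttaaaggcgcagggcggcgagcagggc
Hsph1: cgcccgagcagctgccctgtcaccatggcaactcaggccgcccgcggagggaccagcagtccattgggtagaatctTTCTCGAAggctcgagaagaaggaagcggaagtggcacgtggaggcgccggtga
Hspb1: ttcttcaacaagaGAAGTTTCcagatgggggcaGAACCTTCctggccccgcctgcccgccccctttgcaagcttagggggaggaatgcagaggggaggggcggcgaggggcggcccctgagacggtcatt
Hspe1: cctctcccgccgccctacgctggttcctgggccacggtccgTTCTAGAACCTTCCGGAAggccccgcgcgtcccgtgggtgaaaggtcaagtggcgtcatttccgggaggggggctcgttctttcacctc

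These stretches lie on the minus strand at chr17:34972157-34972286 (Hspa1a), chr17:34959239-34959368 (Hspa1b) and chr5:149636316-149636445 (Hsph1), and on the plus strand at chr5:135887789-135887918 (Hspb1) and chr1:55088018-55088147 (Hspe1). A paired unit was found in 5 of the 6 genes, and Dnajb1 had no match in either of its windows. Of all 27025 genes with windows of the same length, 14.5% held at least 1 of the 2 pairs in a window, 7.73% GAANNTTC and 8.11% TTCNNGAA. Hspb1 held the first pair at 2 places. A run of 3 units, present in 0.514% of these genes, was found among the members only in Hspe1, whose array spans 4 alternating units. One of the 2 annotated starts of Hspd1, the gene of its partner chaperonin, lies 216 bases away in the opposite direction, and for that start both genes share this stretch and the same array. The other Hspd1 window had no match, and from that start the array lies downstream. Hspa1a and Hspa1b, a tandem pair, differed at 1 of the 130 bases shown and at 3 of 250 in the full window. A match is a description of letters and was not tested for binding.

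The libraries held between 22303270 and 31189363 reads, and 1 read corresponded to a normalized read count between 0.0353 and 0.0475. Male replicate 4 stood apart, with a median absolute deviation from its group mean of 0.12 on the log2 scale against 0.04 to 0.07 in the other 5 libraries. Xist separated the groups (0.323 ± 0.176 under the male label and 286 ± 46.7 under the female label, SD, n = 3). Y-linked genes were read in both groups. Eif2s3y was lower in the libraries labelled female, at 29.8 ± 0.411 against 58.1 ± 2.97, and so was Kdm5d, at 19.1 ± 1.61 against 34.8 ± 3.61 (SD, n = 3). Ddx3y (57.0 ± 16.8 in male and 52.1 ± 4.93 in female libraries, SD, n = 3) and Uty were not called, so the sex labels are used here as labels only and each direction rests on them. Pecam1, which encodes CD31, stood at 407 ± 16.2 in male and 73.9 ± 0.540 in female libraries (SD, n = 3). The endothelial gene Kdr was below 5 on average in both groups, at 3.63 ± 0.392 and 2.95 ± 0.636 (SD, n = 3). Of 6 tested markers of sinusoidal endothelium 3 were higher and 3 lower, with sums of 499 to 539 in the male and 50.3 to 52.2 in the female libraries. Lyve1 made up most of that difference, at 498 ± 24.8 and 4.98 ± 0.566, Gata4 was higher, at 3.75 ± 0.0909 and 32.1 ± 0.858, and Stab2 was near 0 in both groups, at 0.0658 ± 0.0591 and 0.258 ± 0.160 (SD, n = 3). The libraries labelled female also had 14 of 17 tested endothelial markers lower and 2 higher, with summed levels of 1290 to 1354 against 2454 to 2562. The 15 tested markers of fibroblasts, stellate cells and smooth muscle went both ways, 5 higher and 9 lower, with sums of 3608 to 4320 against 2926 to 3764. Of 7 tested markers of cholangiocytes, the bile duct cells, 2 were higher and 5 lower, with sums of 515 to 618 in the female and 1648 to 2496 in the male libraries. Spp1 (1368 ± 380 in male and 376 ± 42.9 in female libraries), Krt19 (461 ± 47.7 and 116 ± 20.2) and Sox9 (353 ± 50.8 and 66.3 ± 8.08) were the most abundant of them (SD, n = 3), and Epcam was near 0 in both groups, at 0.0775 ± 0.0398 and 0.231 ± 0.252. Hepatocyte markers summed to at most 2.36 in any library and macrophage markers to at most 15.8, and Ptprc, the leukocyte marker CD45, was at 0 in the 3 male libraries and at 0.232 ± 0.0952 in the female ones (SD, n = 3). The part of this cell composition in the results below was not tested, and in bulk RNA fewer cells of a type and less RNA per cell cannot be told apart.

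Under treatment, the heat shock genes did not move as 1 unit between the libraries labelled male and female. Hsp90aa1, Hspb1, Hsph1, Hspa8, Hspe1 and Dnajb1 were higher in the libraries labelled female, by 2.35-fold for the first and 1.23-fold for the last. Hspa1a was lower, while Hspa1b, Hsp90ab1 and Hsf1 did not pass the test. By limma with Benjamini-Hochberg adjustment over 12568 genes, 6 members were called higher and 1 lower at an adjusted p under 0.05. Over all tested genes the share called was 69.3%, of which 34.6% were higher and 34.6% lower, so a call as such is common in this contrast and 7 calls among 10 genes are near the background. The median log2 fold change of the members was 0.30, against 0.01 over all tested genes. The groups did not overlap, with the female libraries higher, in 7 of 10 members, against 37.1% of all tested genes, and 0 members were lower without overlap, against 37.0%. In either direction the groups were apart for 74.1% of tested genes.

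**Figure D1:**
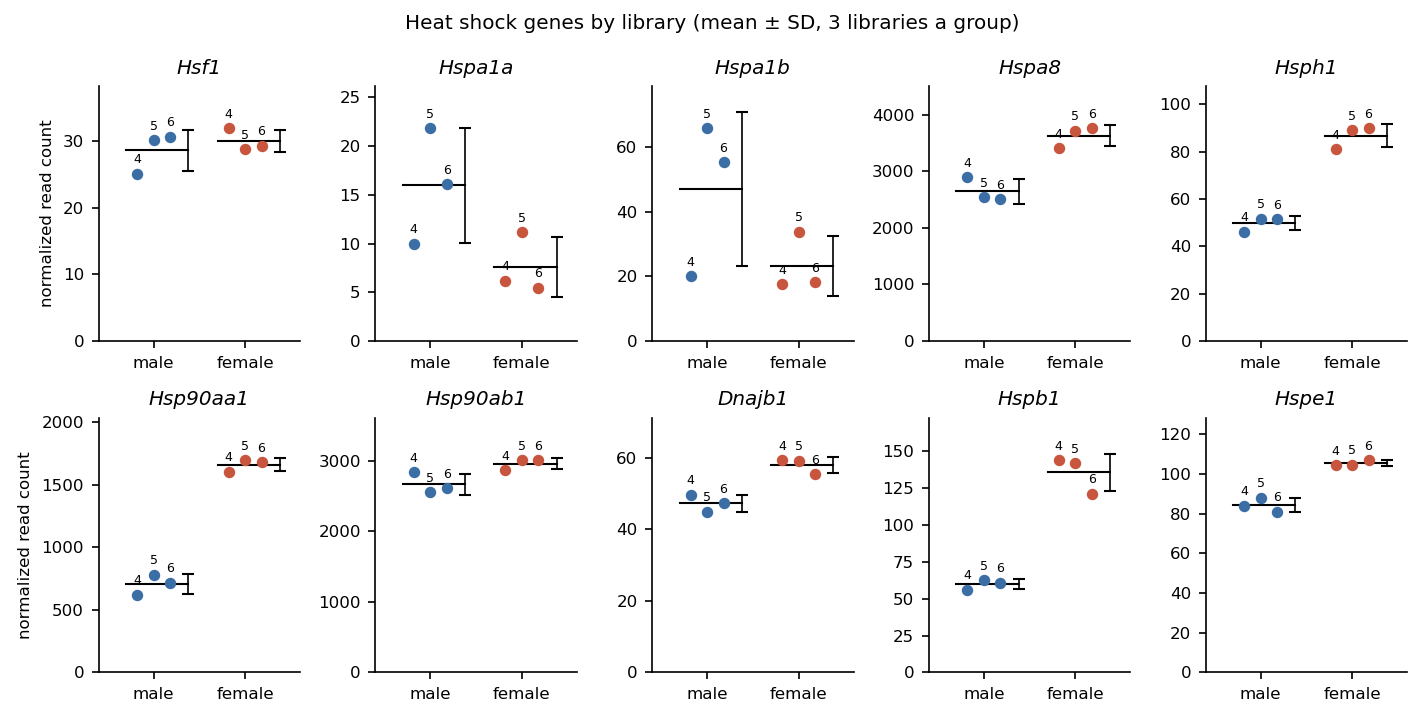
Normalized read count of each heat shock gene in every library (points, with replicate numbers), with the group mean (line) and SD (bar, n = 3); the vertical axes start at 0 and differ between genes. Hsp90aa1 and Hspb1 show separate groups with small spread, whereas the libraries of Hspa1a and Hspa1b are spread widely within each group and overlap.

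**Figure D2:**
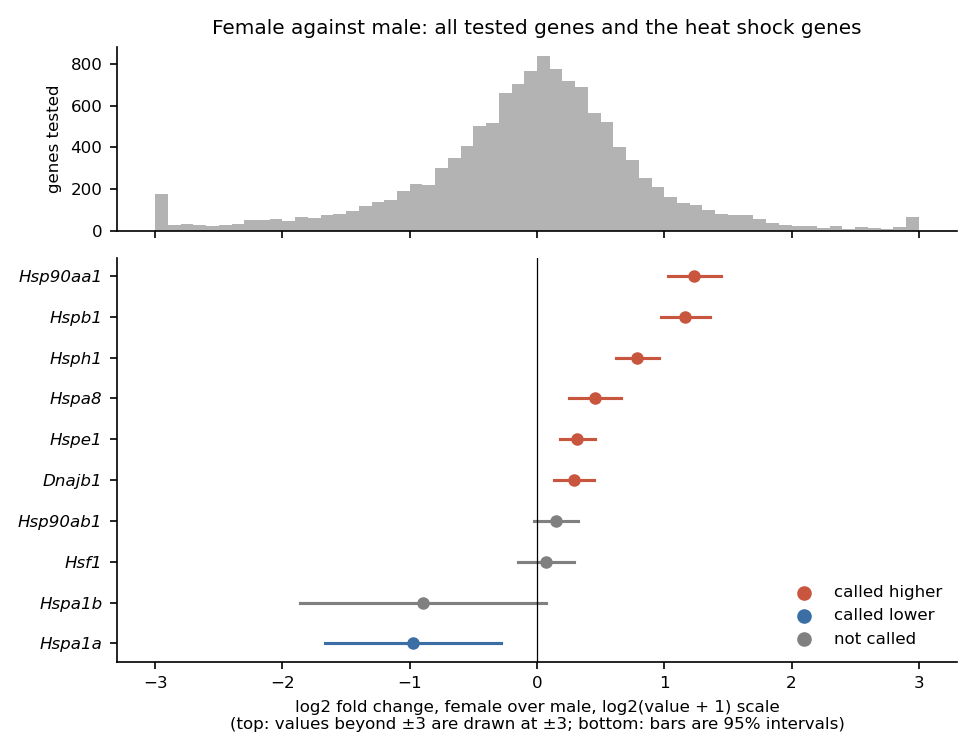
Log2 fold change of female over male on the log2(value + 1) scale for all 12568 tested genes (top, histogram) and for the 10 heat shock genes (bottom, with 95% intervals). The members run from -0.98 for Hspa1a to 1.24 for Hsp90aa1, and the intervals of Hspa1a and Hspa1b are the widest.

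Hsf1, the regulator, had normalized read counts of 25.1, 30.1 and 30.6 in male libraries 4, 5 and 6 and of 31.9, 28.7 and 29.3 in female libraries 4, 5 and 6. The groups overlapped, with male 4 the lowest library. The log2 fold change was 0.07 (95% interval -0.15 to 0.29, limma adjusted p 0.537), and it became -0.02 without male replicate 4. A difference in Hsf1 mRNA was thus not detected, and the interval leaves room for one of up to 0.29 on the log2 scale. The activity of the factor, which is set mainly on the protein, was not measured.

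The stress-inducible HSP70 genes Hspa1a and Hspa1b, which rise sharply when the factor is active, were the members with the lowest female levels and the widest spread. Hspa1b was read at 20.1, 65.8 and 55.3 in male libraries 4, 5 and 6 and at 17.6, 33.8 and 18.1 in female libraries 4, 5 and 6. Hspa1a was at 9.99, 21.8 and 16.1 in the male libraries and 6.18, 11.1 and 5.46 in the female ones, in the same order. In both genes male 5 and male 6 were the highest, and male 4 lay below female 5, so the groups overlapped. The lowest of these values, that of Hspa1a in female 6, rests on 115 reads.

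Hspa1a was called lower (log2 fold change -0.98, SE 0.30, limma adjusted p 0.0187) and Hspa1b was not called (-0.89, SE 0.42, limma adjusted p 0.0894). Leaving out male replicate 5, female replicate 4 or female replicate 6 ended the call of Hspa1a (limma adjusted p 0.0593, 0.0719 and 0.0753). Leaving out male replicate 4 gave Hspa1b a log2 fold change of -1.41 and a limma adjusted p of 0.000380. Hspa1b was also called lower by limma with the replicate block. Each of the 2 genes shares about 6 in 10 of its 50-base stretches with another gene's transcripts (60.3% for Hspa1a and 62.3% for Hspa1b), mostly with the other of the pair, so how reads were divided between them is uncertain. Summed, they stood at 30.1, 87.6 and 71.4 in male libraries 4, 5 and 6 and at 23.8, 45.0 and 23.6 in female libraries 4, 5 and 6. The sum had a log2 fold change of -0.94 (SE 0.39), which did not pass (limma adjusted p 0.0577).

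Spread within a group set this pair apart from the other members. The residual SD of log2(value + 1) was 0.73 for Hspa1b and 0.51 for Hspa1a, larger than that of 99.9% and 99.5% of tested genes. The remaining 8 members had residual SDs from 0.04 (Hspe1) to 0.12 (Hsp90aa1), and none of these exceeded the median over tested genes. Within each group the deviations of the pair ran together, with male 4 low for both and female 5 high for both. Their promoters, shown above, are nearly the same sequence, and their transcripts share reads, so the pair does not count as 2 independent measurements.

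**Figure D3:**
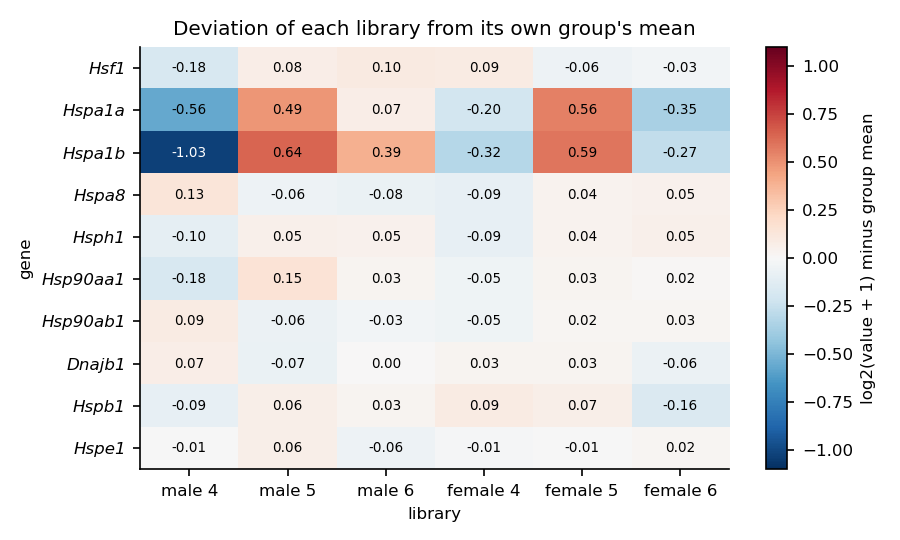
Deviation of each library (columns) from the mean of its own group, on the log2(value + 1) scale, for each heat shock gene (rows). Hspa1a and Hspa1b deviate furthest, by -0.56 and -1.03 in male 4, and the furthest of any other member is -0.18 for Hsp90aa1.

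Hspa8 encodes the constitutive HSP70 of the cytosol, HSC70, which folds new proteins and uncoats clathrin vesicles. Its normalized read count was 2901, 2539 and 2508 in male libraries 4, 5 and 6 and 3414, 3721 and 3759 in female libraries 4, 5 and 6. All 3 female libraries were above all male ones (log2 fold change 0.46, SE 0.09, limma adjusted p 0.00184). Hspa8 shares 67.3% of its 50-base stretches with other genes, mainly the processed pseudogene Gm15459, so its level is uncertain to that extent. The ratio of Hspa1a plus Hspa1b to Hspa8, inducible to constitutive HSP70, was 0.0104, 0.0345 and 0.0285 in male libraries 4, 5 and 6 and 0.00697, 0.0121 and 0.00628 in female libraries 4, 5 and 6. Female 5 lay above male 4, and the difference was -1.42 on the log2 scale (exact two-sided permutation p = 0.2, adjusted p = 0.25 over 5 ratios). With 3 against 3 libraries this test cannot go below 0.1, so none of the 5 ratios could pass at 0.05.

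Hsph1 encodes HSP110, the nucleotide exchange factor of HSP70. It was at 46.2, 51.6 and 51.3 in male libraries 4, 5 and 6 and at 81.1, 89.1 and 89.8 in female libraries 4, 5 and 6. The groups were apart (log2 fold change 0.79, SE 0.07, limma adjusted p 2.50e-05), and Hsph1 shares no 50-base stretch with another gene. The ratio of Hsph1 to Hspa8 was also apart between the groups, from 0.0159 to 0.0205 in the male libraries and from 0.0237 to 0.0239 in the female ones. Its difference was 0.34 on the log2 scale (exact permutation p = 0.1, adjusted p = 0.167), and it was 0.23 without male replicate 4.

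Dnajb1 encodes HSP40, the J-domain partner that loads substrates onto HSP70 and that also takes part in shutting the factor off again. Its values were 49.7, 45.0 and 47.3 in male libraries 4, 5 and 6 and 59.4, 59.3 and 55.4 in female libraries 4, 5 and 6. The 3 female libraries were all higher (log2 fold change 0.29, SE 0.07, limma adjusted p 0.00501). This gene, a classic heat shock gene like Hspa1a and Hspa1b, was thus called in the opposite direction to Hspa1a.

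The HSP90 genes differed from each other. Hsp90aa1 encodes the stress-inducible alpha form and Hsp90ab1 the constitutive beta form. Hsp90aa1 had the largest increase of the members, from 622, 782 and 719 in male libraries 4, 5 and 6 to 1605, 1700 and 1681 in female libraries 4, 5 and 6. This was a log2 difference of 1.24 (SE 0.09, limma adjusted p 6.23e-06), which exceeded the absolute log2 fold change of 85.2% of tested genes. Hsp90ab1 was at 2842, 2559 and 2617 in male libraries 4, 5 and 6 and at 2867, 3009 and 3015 in female libraries 4, 5 and 6. The groups of Hsp90ab1 were apart by a narrow margin, between male 4 and female 4, and the log2 fold change of 0.15 did not pass (95% interval -0.03 to 0.33, limma adjusted p 0.112). Without male replicate 4 it was 0.20 and passed (limma adjusted p 0.00295).

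Within each library, the ratio of Hsp90aa1 to Hsp90ab1 needs no scaling between libraries. It was 0.219, 0.306 and 0.275 in male libraries 4, 5 and 6 and 0.560, 0.565 and 0.557 in female libraries 4, 5 and 6. The means were 0.266 ± 0.0440 and 0.561 ± 0.00381 (SD, n = 3 libraries), and the exact permutation p was 0.1, the smallest possible, with an adjusted p of 0.167. The female libraries agreed closely, with an SD of 0.01 on the log2 scale against 0.25 in the male ones. Hsp90aa1 shares 50.1% of its 50-base stretches with other genes, mainly the processed pseudogene Gm12346, and Hsp90ab1 shares 4.13%, so the numerator is the less certain of the 2 values.

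**Figure D4:**
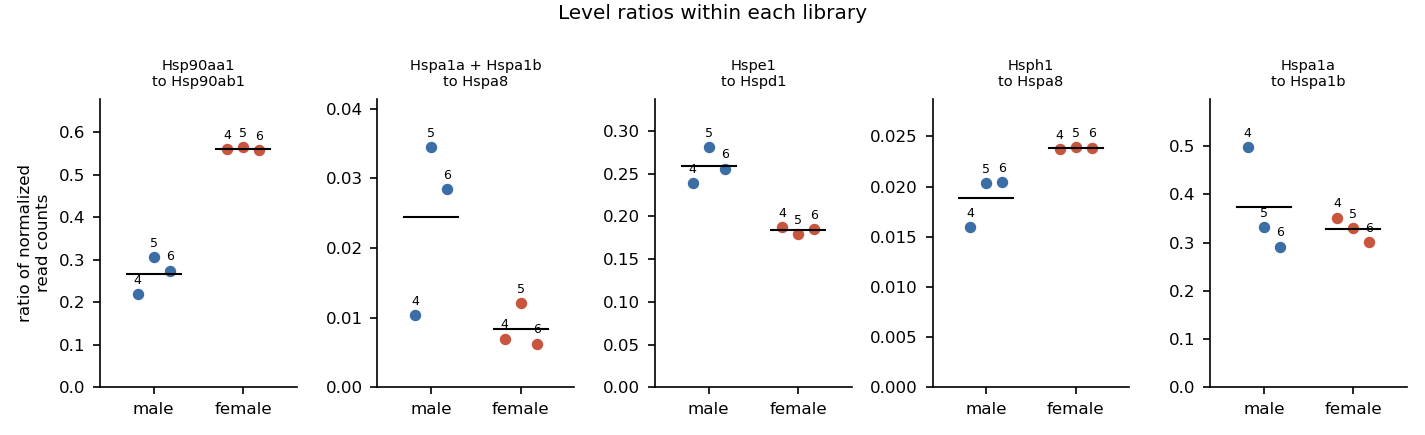
Ratio of normalized read counts within each library for 5 pairs of heat shock genes, with replicate numbers and group means (lines); the axes start at 0. For Hsp90aa1 to Hsp90ab1, Hsph1 to Hspa8 and Hspe1 to Hspd1 the groups are apart, whereas for both ratios with Hspa1a they overlap.

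Hspb1 encodes HSP25, the mouse form of HSP27, a small heat shock protein that holds unfolded proteins and binds actin. It was at 56.0, 62.5 and 61.0 in male libraries 4, 5 and 6 and at 144, 142 and 121 in female libraries 4, 5 and 6. All female libraries were above the male ones, by 2.27-fold on average (log2 fold change 1.17, SE 0.08, limma adjusted p 5.51e-06). Hspb1 shares 48.8% of its 50-base stretches with the pseudogene Hsp25-ps1. Acta2 and Myh11, the smooth muscle genes of actin and myosin, were also higher in these libraries, with Acta2 at 78.6 ± 47.9 in male and 1694 ± 187 in female libraries and Myh11 at 1.65 ± 0.206 and 124 ± 22.0 (SD, n = 3). Most markers of the same list went the other way, 9 of 15 being lower, among them Pdgfrb and Col3a1 (log2 fold change -3.13 and -2.47). Whether these cells bear on Hspb1 was not tested.

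Hspe1 encodes HSP10, the lid of the mitochondrial chaperonin chamber built by HSP60, the product of Hspd1. Its values were 83.9, 88.1 and 81.0 in male libraries 4, 5 and 6 and 104, 105 and 107 in female libraries 4, 5 and 6. The groups were apart (log2 fold change 0.32, SE 0.06, limma adjusted p 0.00132). Hspd1, which lies across the promoter and is no member, was at 351, 313 and 317 in male libraries 4, 5 and 6 and at 557, 585 and 579 in female libraries 4, 5 and 6 (log2 fold change 0.81, SE 0.06, limma adjusted p 1.08e-05). Both genes rose, but not equally: the ratio of Hspe1 to Hspd1 was 0.259 ± 0.0213 in the male and 0.184 ± 0.00431 in the female libraries (SD, n = 3), a log2 difference of -0.49. The groups of this ratio did not overlap (exact permutation p = 0.1, adjusted p = 0.167). Hspe1 and Hspd1 share 36.1% and 39.7% of their 50-base stretches with other genes.

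Levels between genes can be compared only per length. Per kilobase of the longest coding transcript in GENCODE M21, the members fell into 3 levels in the male libraries. Hspa8 (1107 ± 91.2) and Hsp90ab1 (1061 ± 59.3) stood at the top and did not differ beyond their spread (SD, n = 3, normalized read count per kilobase). Hsp90aa1 (216 ± 24.6), Hspe1 (109 ± 4.61) and Hspb1 (64.4 ± 3.65) followed. Hspa1b (16.8 ± 8.55), Dnajb1 (15.8 ± 0.782), Hsf1 (13.6 ± 1.45), Hsph1 (13.1 ± 0.798) and Hspa1a (5.38 ± 1.99) were lowest, and neighbours in this order overlapped within 1 SD except for Hspa1a. In the female libraries Hspa8 (1517 ± 79.0) stood above Hsp90ab1 (1176 ± 33.2) beyond their spread, and Hsp90aa1 reached 506 ± 15.2 per kilobase. Hspb1 reached 146 ± 13.6 and Hspe1 136 ± 1.88 in these libraries, a pair within its spread. There Hsph1 (22.8 ± 1.28) stood above Dnajb1 (19.4 ± 0.758), and Hspa1a was again the lowest, at 2.56 ± 1.04. All 10 members together took from 0.562% to 0.577% of the reads in the male libraries and from 0.792% to 0.839% in the female ones, and between 94.2% and 95.6% of these reads came from Hspa8, Hsp90aa1 and Hsp90ab1.

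In the authors' deposited table, 3 of the 10 members had a false discovery rate under 0.05, namely Hspb1 (0.00145), Hsp90aa1 (0.0297) and Hsph1 (0.0447), where 25.8% of all genes did. That table gives Hspa1a a signed fold change of -2.10 with a false discovery rate of 0.138 and Hspa1b one of -2.03 with 0.114. edgeR's quasi-likelihood test on the recovered reads called the same number of members as limma, 6 higher and 1 lower, against 68.0% of all genes tested.

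Other chaperone genes were read by role, from lists drawn from general knowledge with earlier results of these data known. Of 98 such genes, 89 were tested, of which 43 were called higher and 19 lower by limma, with a median log2 fold change of 0.22. The counts stand against 34.6% of all tested genes in each direction.

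**Figure D5:**
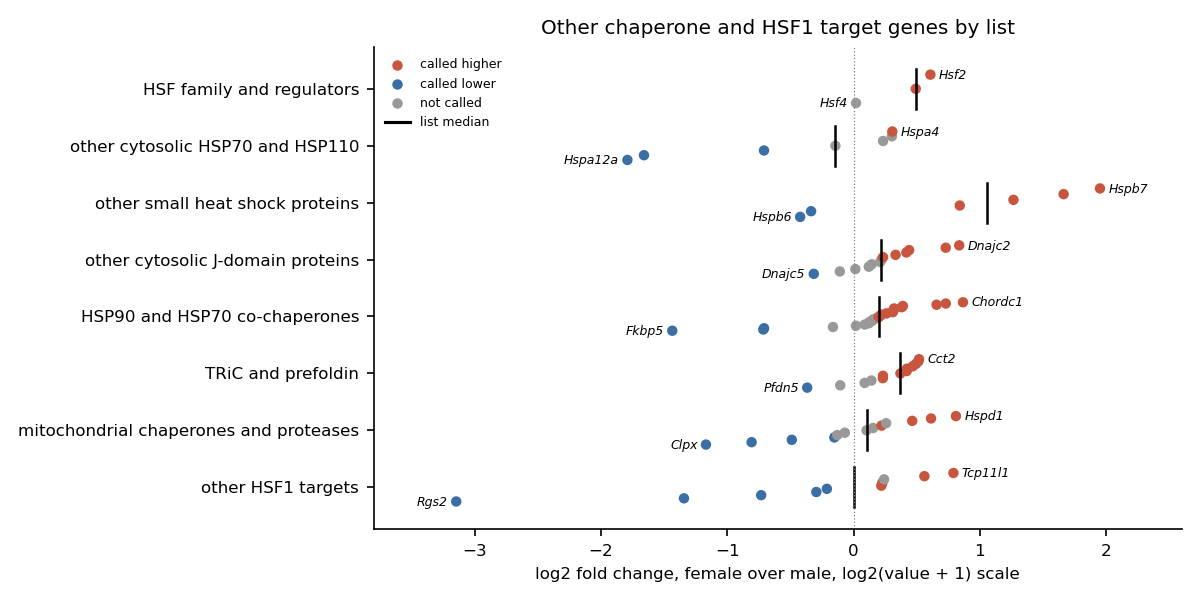
Log2 fold change of female over male on the log2(value + 1) scale for the 89 tested chaperone and HSF1 target genes outside the members, by list, with list medians (black lines). The dots of the small heat shock proteins reach furthest to the right, with Hspb7 at 1.95, and Rgs2 is furthest to the left at -3.15.

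The TRiC complex, the cytosolic chaperonin that folds actin and tubulin, was higher in every tested subunit. All 8 tested subunits were called higher (median log2 fold change 0.45), where 34.6% of all tested genes were. Among them were Cct2, from 380 ± 21.5 to 545 ± 15.8, and Cct5, from 307 ± 6.13 to 439 ± 7.50 (SD, n = 3). None of the 8 had a false discovery rate under 0.05 in the authors' deposited table, the lowest being 0.0792 for Cct5. Prefoldin, which hands substrates to TRiC, did not follow: of 5 tested subunits 1 was higher, Pfdn4 (0.23), and 1 lower, Pfdn5 (-0.37). edgeR did not call Pfdn4 (adjusted p 0.0503). The split of this list into its complexes was made after the values were seen.

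The largest increases among these lists were those of small heat shock proteins. Of 6 tested, 4 were called higher and 2 lower, where 34.6% of all tested genes were called in each direction. Cryab, the alpha-B crystallin of muscle and lens, was at 202 ± 16.1 in male and 640 ± 5.98 in female libraries (SD, n = 3, log2 fold change 1.66, limma adjusted p 2.83e-07). Hspb7, a small heat shock protein of heart and muscle, had a log2 fold change of 1.95 and Hspb8 one of 0.84. Hspb2 was low, at 0.588 ± 0.317 in male and 2.77 ± 0.171 in female libraries (SD, n = 3). Its log2 fold change of 1.27 is understated on this scale, and edgeR gave it 2.22, against 2.12 for Hspb7. Hspb6 (-0.42) and Hspb11 (-0.34) were lower. Several of these genes are known from muscle, and the smooth muscle markers Acta2 and Myh11 rose in the same libraries while Pdgfrb, a marker of mural and stellate cells, was lower (133 ± 3.76 and 14.3 ± 1.17, SD, n = 3). The part of such cells in these values was not tested.

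J-domain proteins were called higher in 6 of 13 tested genes and lower in 1, against 34.6% of all tested genes in each direction. Dnaja1, a main J-domain partner of HSC70, was at 184 ± 9.54 and 306 ± 18.2 (SD, n = 3, log2 fold change 0.73, limma adjusted p 2.50e-05). Dnajc2, which works at the ribosome, had one of 0.84, and Dnajc5 was lower (-0.32). The call of Dnajc5 was lost with quantile normalization (-0.20, limma adjusted p 0.0612) and without any 1 of the 3 female libraries (limma adjusted p up to 0.0760), and its log2 fold change was -0.19 without male replicate 4. Among 7 tested genes of the other HSP70 and HSP110 proteins, Hspa4 was the 1 called higher (0.31), and Hspa12a (-1.79), Hspa12b (-1.66) and Hspa2 (-0.71) were lower. Of 3 tested genes of the factor's family and its regulators, Hsf2 (0.61) and Hsbp1 (0.49), whose product binds and restrains the factor, were higher and Hsf4 was not called (0.02).

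Co-chaperones of HSP90 and HSP70 were called higher in 13 of 24 and lower in 3, against 34.6% of all tested genes in each direction. Chordc1 (0.87) and Cacybp (0.73) had the largest increases in log2 fold change. Fkbp5, a co-chaperone of steroid receptors that glucocorticoids induce, was lower, at 124 ± 9.43 against 337 ± 22.1 (SD, n = 3, log2 fold change -1.44), and so was Bag2 (-0.71). Ptges3, which encodes p23, rose from 236 ± 5.92 to 275 ± 15.4 (SD, n = 3, log2 fold change 0.22). Bag3 and Stip1, often used as markers of the heat shock response, were not called (0.12 and 0.02, limma adjusted p 0.296 and 0.769), though Stip1 was called higher with quantile normalization (0.13, limma adjusted p 0.0400).

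Of 13 tested mitochondrial chaperones and proteases, 4 were called higher and 4 lower, near the 34.6% of all tested genes in each direction. Those higher were Hspd1 (0.81), Hspa9 (0.22), which encodes the HSP70 of the matrix, its exchange factor gene Grpel1 (0.61) and Htra2 (0.46), though the groups of Hspa9 overlapped and edgeR did not call it (adjusted p 0.0572). Clpx, the unfoldase of the matrix protease ClpXP, was at 110 ± 5.52 and 48.3 ± 3.30 (SD, n = 3, log2 fold change -1.17), and Hscb (-0.81), Dnaja3 (-0.49) and Trap1 (-0.15) were lower too. Of 10 other genes listed as HSF1 targets, 4 were higher and 5 lower, against the same 34.6% in each direction. Tcp11l1 (0.79), Sqstm1 (0.56), Serpinh1 (0.23) and Hmox1 (0.22) were higher. Serpinh1 lost its call with the replicate block (limma adjusted p 0.0605) and on leaving out any library other than male replicate 4 (limma adjusted p up to 0.105). Among those lower were Rgs2 (-3.15), Ier5l (-1.34), Pgk1 (-0.30) and Ubb (-0.21). In the lists with 5 or fewer calls in a direction, genes beyond the naming rule were added after their values were seen.

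The genes whose profile over the 6 libraries lay closest to the mean of Hspa1a, Hspa1b, Dnajb1 and Hsph1 were sought among 8966 genes by Euclidean distance of centred log2(value + 1). Rpl34 (0.25), Ppp2r5b (0.30), Rars2 (0.30), Lyrm2 (0.31) and Zfp280c (0.32) were the nearest, and none of them was called by limma. Because the 4 profiles run in opposite directions, their mean is nearly level between the groups, and the list describes that mean rather than any single gene.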

How the data were processed

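Poly(A) RNA was sequenced in 6 libraries after Trizol and column extraction and Kapa HyperPrep library construction, per the labels' protocols. Bowtie2, RSEM, edgeR and the build mm39 are named in the submitters' processing notes, with no role or version. The signal in the deposited columns is a normalized read count. In each column 100% of values were whole multiples (tolerance 0.01) of the smallest value above 0, so the authors divided reads by 1 factor per library, and dividing by that smallest value recovered the reads. RSEM estimates may have been rounded before. The deposited score is the authors' signed fold change, and the deposited p-values hold the result of the authors' test with its false discovery rate, both per the file headers. Columns without a sample numbered 0.

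limma 3.58.1 (R 4.3.3, intensity trend) was fitted to log2(value + 1), keeping genes that reached a value of 1 in 3 or more libraries, with Benjamini-Hochberg adjustment at 0.05. Fold changes on this scale understate changes of low genes. The alternatives were RLE factors, quantile normalization, no filter, 10 reads in every library, a pseudocount of 0.1, the replicate block, edgeR 4.0.16, DESeq2 1.42.0, voom, Hspa1a and Hspa1b summed, and each library left out. The scripts were tested on simulated data. Members and lists were chosen with earlier results of these data known. By rule, every member is named, with the 2 largest called changes in each direction per list (mean of at least 10, groups apart) and Hspd1, Bag3, Dnaja1, Stip1, Serpinh1 and Cryab. Shared sequence was counted over 50-base stretches of GENCODE M21 transcripts (GRCm38), and promoters came from RefSeq (GRCm38.p6), a build other than the authors', so only those sequences carry coordinates. Hspa1a and Hspa1b per-gene values depend on how reads were divided. Values of some list genes are not reported here.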

Additional observations from a re-analysis of the deposited data

How the results depend on the processing

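The 6 members called higher remained 6 in number in all 10 alternatives that used every library, and were 6 or 7 when each library was left out in turn. The count called lower was 2 with the replicate block, 0 with Hspa1a and Hspa1b summed into 1 row, and from 0 to 2 across the fits without 1 library. By its construction the sum replaces 2 rows; for the others the cause was not tested. Hsf1 ran from -0.019 without male replicate 4, a change of sign, to 0.12 without male replicate 6, uncalled throughout. The ratio of Hspa1a to Hspa1b, -0.15 on the log2 scale, ran from -0.31 to 0.072 across those fits and was above 0 only without male replicate 4. All genes called numbered 8704, from 8236 to 9097 with all libraries and from 7373 to 9113 without 1. The other chaperone lists had 31 to 48 genes higher and 16 to 21 lower without 1 library. Of 638 recomputed values of single genes, 620 kept direction and call. Over all tested genes, deviations of same-numbered libraries correlated at -0.09, -0.03 and -0.17, and no library correlated best with its own number. For Hspa1b, male and female libraries numbered 4 were both low (-1.03 and -0.32) and those numbered 5 both high (0.64 and 0.59). Those numbered 6 differed in sign (0.39 and -0.27), and Hspa1a had the same signs. Whether replicate numbers mark a shared batch for this pair was not tested. With the replicate block 8314 genes were called, and Hspa1b became the second member called lower (limma adjusted p 0.0136). Each member had at least 115 reads in every library, and each group had 3 libraries.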
